A study of Mus musculus with 9 samples.

Results

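The 78 genes described here encode the mitochondrial ribosomal proteins that carry an Mrpl or Mrps symbol in the mouse. They were taken from a table of 45706 gene identifiers as all protein-coding genes whose symbol is Mrpl or Mrps followed by a number and at most 1 letter. The rule used no expression value. By name, 49 belong to the large and 29 to the small subunit. By their place in the solved ribosome 51 are large-subunit proteins, because Mrps30 (now mL65) and Mrps18a (now mL66) sit in the large subunit despite their names, and 26 are small-subunit proteins. The remaining gene, Mrps36, is now known to encode a subunit of the alpha-ketoglutarate dehydrogenase complex and not a ribosomal protein. Enough reads for a test were found for 77 of the 78 genes, of 17971 genes tested in all.

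RNA was sequenced from the central nervous system of C57BL6/J mice at 3 ages, with 3 libraries (#1 to #3) per age and no treatment or genetic change in any group. The E9.5 samples were embryonic heads cut off behind the 4th ventricle, with most tissue other than neuroectoderm removed. The E14.5 samples were embryonic brains freed of meninges. The P60 samples were adult brain tissue taken after the blood had been washed out by perfusion. The ages were therefore dissected differently, and age and dissection cannot be told apart. Nothing in the labels says that the libraries of an age came from separate animals, so the p-values measure the spread between these libraries, which may be technical.

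Mitochondria keep a ribosome of their own, which translates the few proteins encoded by mitochondrial DNA, all of them subunits of the oxidative phosphorylation complexes. Its RNAs are made in the mitochondrion, but every one of its proteins is encoded in the nucleus, made in the cytosol and imported. Some of these proteins descend from bacterial ribosomal proteins, and others joined the ribosome only in mitochondria. In the brain, mitochondrial translation is known as a requirement for neurons with high energy demand, and inherited defects of it cause encephalopathies.

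Library totals ran from 30481975 to 35619093 counts, of which 78715 to 224515 fell on the mitochondrial ribosomal protein genes. Across genes, log2 CPM (read counts scaled to a common library size) correlated at 0.98 to 0.995 within an age and at 0.61 to 0.857 between ages. The summed neuron markers reached 3950 to 5190 CPM at E14.5 and P60, against 145 to 185 CPM at E9.5, and the oligodendrocyte markers 12200 to 14500 CPM at P60. The neuron sums at E14.5 and P60 came from different markers. Mean Tubb3 fell from 2660 CPM at E14.5 to 629 CPM at P60, and Dcx from 1270 to 5.72 CPM. Snap25 rose from 103 to 3150 CPM, Syt1 from 138 to 884 CPM and Rbfox3 from 66.2 to 124 CPM. Markers of cells outside the neural tissue were present too. Red cell genes summed to 2590 to 3530 CPM at E9.5, 387 to 768 CPM at E14.5 and 7.46 to 28.8 CPM at P60, and surface epithelium genes to 133 to 221, 4.70 to 8.20 and 5.17 to 12.2 CPM. Mesenchyme genes summed to 223 to 308 CPM at E9.5, 126 to 336 CPM at E14.5 and 41.8 to 62.8 CPM at P60. Muscle genes reached 223 CPM in E9.5 library #1, against 4.94 and 4.69 CPM in the other E9.5 libraries. None of the listed markers was at 0 in all libraries of an age, and their part in the results below was not tested. Within their ages, E14.5 #1 and P60 #2 stood apart most in the genes studied, and the counts without them are given below. E9.5 #1 stood apart less. In it 75 of 77 tested members were above their E9.5 mean, with a median log2 deviation of 0.17. In bulk tissue, fewer cells of a type and less RNA per cell cannot be told apart.

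By CPM, most mitochondrial ribosomal protein genes had their lowest level at E14.5 and their highest in the adult. Summed over all members, the level in libraries #1 to #3 was 4571, 3916 and 3728 CPM at E9.5, 3501, 2267 and 2264 CPM at E14.5, and 6203, 4176 and 6616 CPM at P60. All E14.5 libraries were below all E9.5 and P60 libraries, while P60 library #2 lay within the E9.5 range. The mean sum was 4070 ± 443 CPM in the E9.5, 2680 ± 713 CPM in the E14.5 and 5660 ± 1310 CPM in the P60 libraries (SD, n = 3 each). The lowest mean was at E14.5 for 67 of the 77 tested members, a position held by 20.8% of all genes tested, at E9.5 for 8 (38.3%) and at P60 for 2 (40.9%). All E14.5 libraries were below all other libraries for 36 members (9.76% of all genes). The highest mean was at P60 for 63 members (40.4% of all genes), at E9.5 for 14 (36.5%) and at E14.5 for 0 (23.1%).

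**Figure D1:**
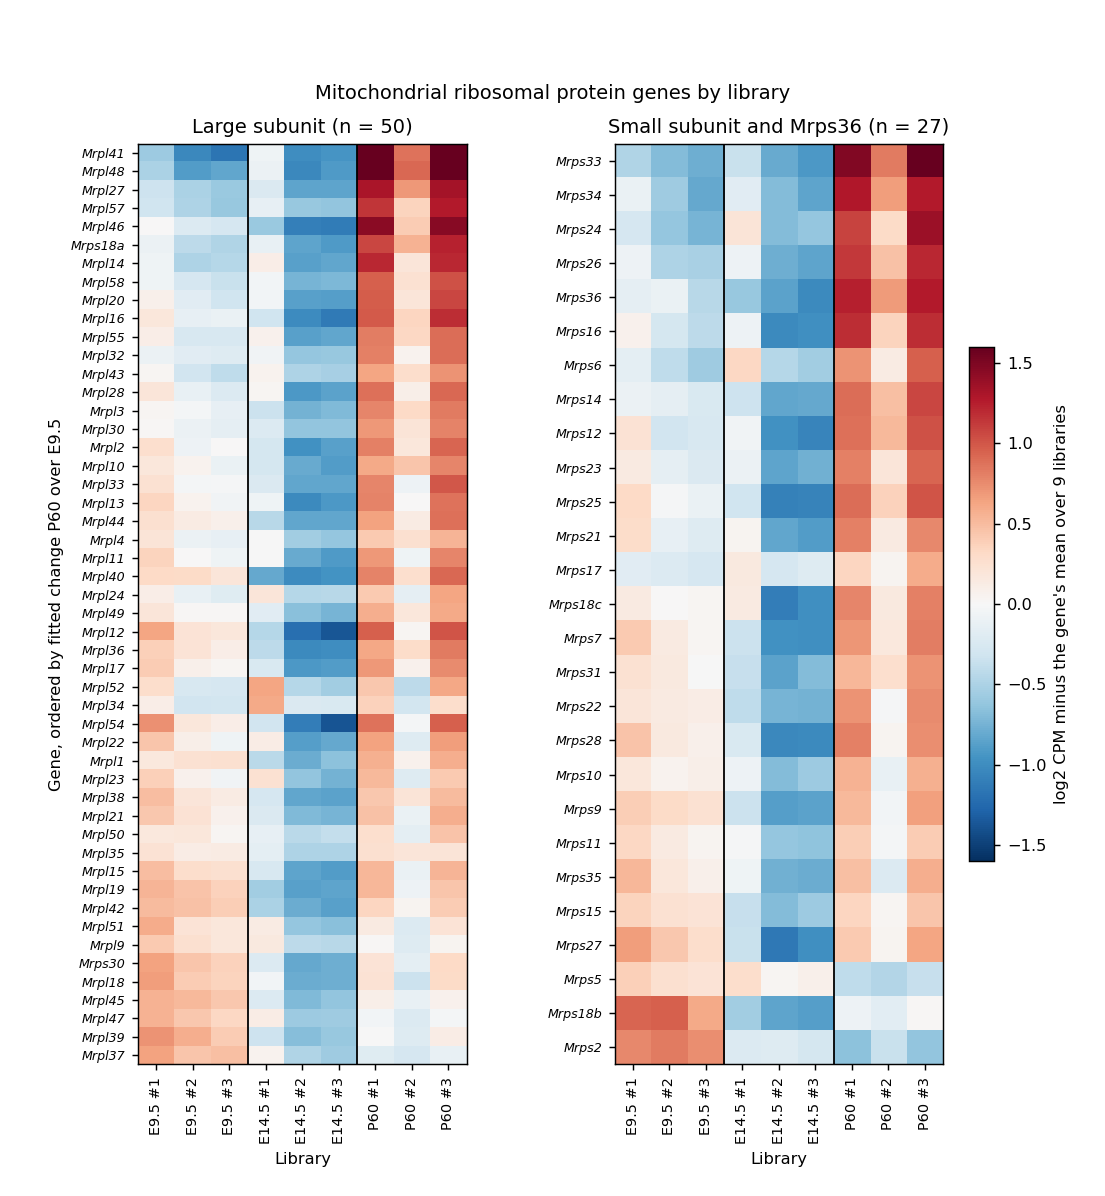
Each row is a member and each column a library, with colour showing log2 CPM minus the gene's mean over the 9 libraries; rows run from the largest rise at P60 over E9.5 at the top to the largest fall at the bottom. The E14.5 columns are mostly blue and the P60 columns mostly red, with E14.5 #1 and P60 #2 paler than the other libraries of their age, and Mrps2 and Mrps5 at the bottom right lowest at P60.

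Per length, in TPM (counts divided by exon length and rescaled to the same total in every library), the sums were again lowest at E14.5, but the adult level was no higher than that at E9.5 for most members. The summed TPM in libraries #1 to #3 was 7180, 6443 and 6291 TPM at E9.5, 6087, 4424 and 4481 TPM at E14.5, and 8076, 5918 and 8129 TPM at P60. The E14.5 libraries were again below the E9.5 libraries, but P60 #2 was below E14.5 #1. The TPM scale moved all genes together. The median log2 ratio of the members' mean TPM was 0.55 for P60 against E14.5, where that of all genes tested was -0.65, and -0.05 for P60 against E9.5, where that of all genes was -0.38. By mean TPM, 64 of 77 members were higher and 13 lower at P60 than at E14.5, and 34 were higher and 43 lower at P60 than at E9.5. The median TPM over the members was 73.1 ± 3.72 at E9.5, 52.7 ± 6.61 at E14.5 and 70.8 ± 8.67 at P60 (SD, n = 3 each). The folds given from here on are fitted on counts scaled by the trimmed mean of M values (TMM), which sets the bulk of genes level between libraries, and they state changes relative to that bulk.

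From E9.5 to E14.5, mitochondrial ribosomal protein genes fell or did not pass the test. By edgeR's quasi-likelihood test with Benjamini-Hochberg adjustment over all genes, 45 of 77 members were lower at E14.5 than at E9.5 (adjusted p under 0.05), where 30.7% of all genes were called lower and 64.6% in either direction. No member was called higher, where 34.0% of all genes were. None was higher at an unadjusted p under 0.05 or by DESeq2 either. The fall was at least 2-fold for 12 members (18.1% of all genes). The median fitted log2 change was -0.60 over the members and 0.03 over all genes tested, and the members ranged from -1.59 to 0.30. The E14.5 and E9.5 libraries did not overlap, with E14.5 below, for 46 members (35.1% of all genes). The count of falls depended on single libraries. It was 30 without E14.5 #2 or without E14.5 #3, 31 without E9.5 #1 and 59 without E14.5 #1.

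Between E14.5 and P60 nearly the whole group rose. At P60, 67 of 77 members were higher than at E14.5 (36.7% of all genes) and 2 were lower (39.4%), where 76.1% of all genes were called in either direction. Neither fall reached 2-fold (29.7% of all genes). The rise was at least 2-fold for 47 members, where 27.1% of all genes were called that far up. The median log2 change was 1.14 over the members and -0.06 over all genes, with a range of -0.55 to 2.29. The P60 and E14.5 libraries did not overlap, with P60 above, for 58 members (36.9% of all genes). The same E14.5 libraries entered this step and the one before it, so the fall and the rise are not independent measurements.

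Over the whole interval the members parted. At P60, 31 of 77 were higher than at E9.5, a share close to that of all genes (42.0%), and 7 were lower, against 40.6% of all genes. The median log2 change was 0.40 over the members and 0.05 over all genes, from -1.32 to 2.59. At least 2-fold changes numbered 15 upward (35.1% of all genes) and 1 downward (32.5%). The number higher was 47 without P60 #2. The F test over the 3 ages called 72 members, where it called 91.5% of all genes. The 5 that it did not call were Mrpl9, Mrpl23, Mrpl24, Mrpl34 and Mrpl52, of which Mrpl9, Mrpl24 and Mrpl52 are named after their values were seen.

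Both subunits followed this course. Of 50 tested large-subunit genes 30 were lower at E14.5 than at E9.5, 42 were higher and 0 lower at P60 than at E14.5, and 19 were higher and 4 lower at P60 than at E9.5. None of the 50 was lower in the second step at an unadjusted p under 0.05 or by DESeq2. Of 26 small-subunit genes 14 were lower at E14.5 than at E9.5, 24 were higher and 2 lower at P60 than at E14.5, and 11 were higher and 3 lower at P60 than at E9.5. Among all genes tested, 30.7% were lower in the first of these comparisons. In the second 36.7% were higher and 39.4% lower, and in the third 42.0% and 40.6%. The median log2 changes in these 3 comparisons were -0.65, 1.06 and 0.39 for the large and -0.56, 1.15 and 0.47 for the small subunit. The summed TPM of the large subunit over that of the small subunit was 2.61, 2.59 and 2.61 in the E9.5 libraries, 2.65, 2.65 and 2.61 in the E14.5 libraries, and 2.73, 2.54 and 2.70 in the P60 libraries. This ratio of sums, to which abundant members add most, lay between 2.54 and 2.73 in all 9 libraries. The median TPM of the members of a subunit did not keep such a ratio. It was 89.1 ± 5.95, 59.7 ± 4.33 and 79.9 ± 12.9 TPM for the large and 46.8 ± 2.21, 42.4 ± 3.62 and 67.4 ± 11.7 TPM for the small subunit at E9.5, E14.5 and P60. Of 46 members classed as having a bacterial homologue, 25 were lower at E14.5 than at E9.5 and 39 higher at P60 than at E14.5. Of 31 members classed as mitochondria-specific, 20 were lower and 28 higher in the same comparisons. This second class holds Mrps36, which is not a ribosomal protein. It also holds Mrps18a and Mrps18b, which are versions of 1 bacterial protein.

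Among large-subunit proteins, Mrpl12 is the stalk protein that contacts translation factors, and it is also reported to bind the mitochondrial RNA polymerase. Its level was 139, 105 and 102 CPM at E9.5, 65.5, 38.8 and 34.9 CPM at E14.5, and 174, 92.1 and 181 CPM at P60. The E14.5 libraries were below all others, and the P60 and E9.5 libraries overlapped. The fitted log2 change was -1.31 ± 0.30 (SE) at E14.5 against E9.5 (edgeR, adjusted p = 0.0026) and 1.68 ± 0.30 at P60 against E14.5 (adjusted p = 0.00040). Mrpl40, a protein of the central protuberance at the top of the large subunit, had the same shape with less spread. It was at 55.6, 54.9 and 50.8 CPM at E9.5, 25.1, 22.1 and 22.8 CPM at E14.5, and 76.8, 53.5 and 83.7 CPM at P60. It fell by 1.20 ± 0.17 on the log2 scale at E14.5 against E9.5 (adjusted p = 0.00010) and rose by 1.61 ± 0.17 at P60 against E14.5 (adjusted p = 8.6e-06). P60 library #2 lay among the E9.5 libraries for Mrpl40, and its call of 0.41 ± 0.17 at P60 against E9.5 (adjusted p = 0.042) was lost when any of 7 libraries was left out.

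Mrpl41, a protein found only in mitochondrial ribosomes (GRCm38, chr2:24974117-24975098, minus strand), had the largest adult rise of the group. Its level was 40.0, 29.3 and 26.7 CPM at E9.5, 57.2, 30.0 and 31.1 CPM at E14.5, and 224, 109 and 245 CPM at P60. The E14.5 libraries overlapped the E9.5 libraries and all P60 libraries were above both. The log2 change was 2.29 ± 0.34 at P60 against E14.5 (edgeR, adjusted p = 0.00011) and 2.59 ± 0.35 at P60 against E9.5 (adjusted p = 3.4e-05). Per length Mrpl41 had the highest average of the members over the 9 libraries, at 287 TPM. This rank came from P60, since its mean was 127 TPM at E9.5, 173 TPM at E14.5 and 560 TPM at P60. Mrpl12 stood above it at E9.5 (266 TPM) and Mrpl34 at E14.5 (293 TPM). Mrpl48 and Mrpl46, like Mrpl40 proteins of the central protuberance, rose almost as far. Mrpl48 was at 33.4, 25.5 and 26.7 CPM at E9.5, 44.3, 23.2 and 25.2 CPM at E14.5, and 146, 89.7 and 154 CPM at P60, a log2 change of 2.07 ± 0.28 at P60 against E14.5 (adjusted p = 5.4e-05). Mrpl46 was at 49.3, 41.9 and 40.6 CPM at E9.5, 32.3, 22.9 and 22.5 CPM at E14.5, and 133, 64.8 and 134 CPM at P60, a log2 change of 2.09 ± 0.27 in that comparison (adjusted p = 3.7e-05). For both, every P60 library was above every embryonic one. Of the exon length of Mrpl48, 8.7% overlaps Rab6a on the opposite strand, and 12.2% of that of Mrpl46 overlaps Mrps11. Part of their reads may belong to these genes. Rab6a averaged 113 ± 10.8 CPM at E9.5, 179 ± 36.4 CPM at E14.5 and 586 ± 40.3 CPM at P60. Between the embryonic ages, all E14.5 libraries of Mrpl46 were below its E9.5 libraries, while those of Mrpl48 overlapped. This difference between the 2 genes was not tested. The fall of Mrpl46 at E14.5 against E9.5 was -0.76 ± 0.26 on the log2 scale (edgeR, adjusted p = 0.025). Its call was lost without E9.5 #1, without E14.5 #2 or without E14.5 #3.

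**Figure D2:**
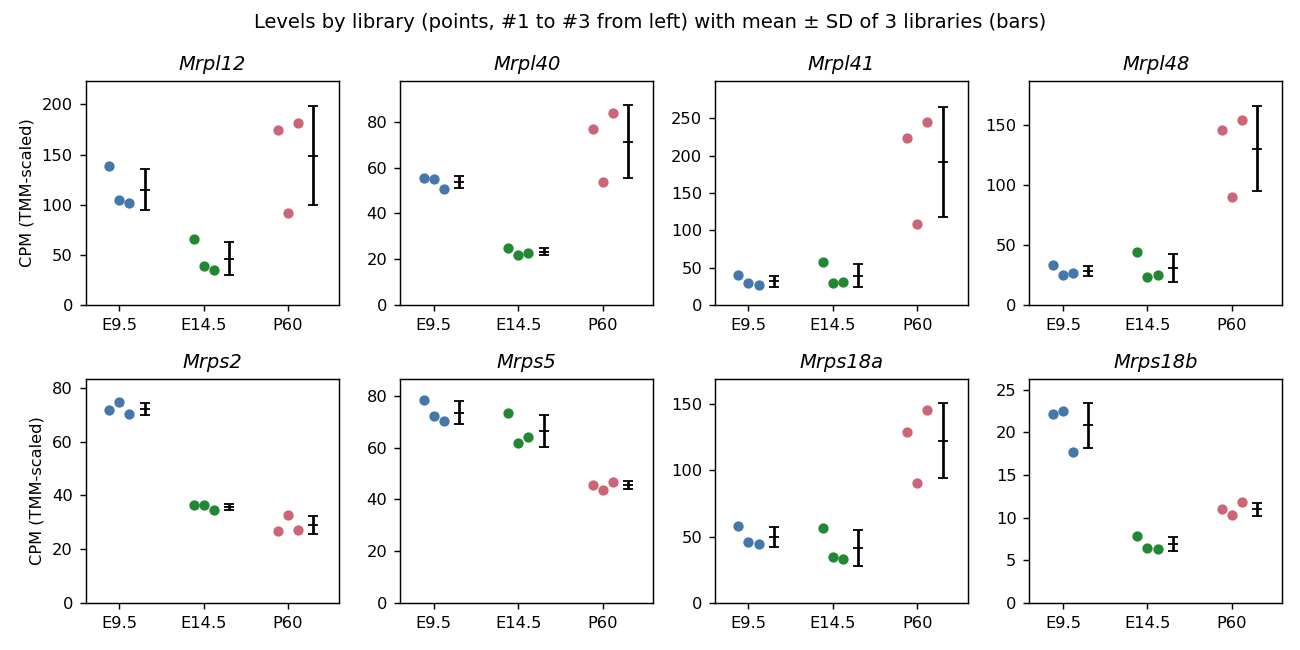
The level in CPM on the vertical axis is plotted for 8 members at each age, with a point per library and a bar for the mean ± SD of 3 libraries. Mrpl12, Mrpl40 and Mrps18b are lowest at E14.5, Mrpl41, Mrpl48 and Mrps18a stand high only at P60, and Mrps2 and Mrps5 are lowest at P60.

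Several large-subunit genes fell and did not regain their early level. Mrpl45 encodes the protein that holds the ribosome to the inner mitochondrial membrane next to the tunnel where new chains leave. It was at 86.9, 84.8 and 79.4 CPM at E9.5, 50.7, 36.0 and 38.1 CPM at E14.5, and 62.8, 54.5 and 61.6 CPM at P60. The 3 ages did not overlap. The log2 change was -1.01 ± 0.15 at E14.5 against E9.5 (edgeR, adjusted p = 0.00017) and -0.49 ± 0.15 at P60 against E9.5 (adjusted p = 0.012), the second of which was not called with upper quartile scaling or without a filter on low counts. Mrpl39 and Mrpl37 ended further down. Mrpl39 averaged 73.1 ± 8.01, 34.0 ± 4.51 and 48.2 ± 5.42 CPM at E9.5, E14.5 and P60 (SD, n = 3 each). Mrpl37 averaged 103 ± 7.64, 57.8 ± 14.3 and 62.4 ± 3.33 CPM. At P60 against E9.5 their log2 changes were -0.60 ± 0.15 (adjusted p = 0.0034) and -0.72 ± 0.17 (adjusted p = 0.0023). Mrpl47 averaged 40.1 ± 3.14, 23.9 ± 7.10 and 27.6 ± 1.89 CPM and fell by 0.54 ± 0.19 in that comparison (adjusted p = 0.023), a call lost with upper quartile scaling, without the filter and without E9.5 #1 or P60 #2.

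Of the other large-subunit genes that fell at least 2-fold by E14.5, Mrpl54, Mrpl42, Mrpl36, Mrpl19 and Mrps30 were called higher again at P60 than at E14.5. Mrpl36, a small zinc-binding protein that joins the large subunit late, averaged 44.3 ± 4.22 CPM at E9.5, 21.8 ± 5.41 CPM at E14.5 and 56.9 ± 10.5 CPM at P60. Its log2 change was 1.39 ± 0.20 at P60 against E14.5 (edgeR, adjusted p = 8.7e-05). Mrps30 averaged 44.7 ± 4.34, 21.3 ± 5.30 and 35.1 ± 5.72 CPM at the 3 ages. Mrpl19 averaged 78.2 ± 4.63, 33.9 ± 4.29 and 70.9 ± 15.1 CPM, but 36.0% of its exon length is shared with Gcfc2, so part of its reads may belong to that gene. A second set rose in the adult with no call between the embryonic ages. Mrpl27, which lies near the peptidyl transferase centre, had 32.9 ± 3.13 CPM at E9.5, 29.8 ± 7.79 CPM at E14.5 and 101 ± 23.1 CPM at P60, a log2 change of 1.61 ± 0.22 at P60 against E9.5 (adjusted p = 4.0e-05). Mrpl57, Mrpl14 and Mrpl58 belonged to this set. Mrpl58 is a peptidyl-tRNA hydrolase that rescues stalled ribosomes and became part of the large subunit. It averaged 53.6 ± 5.56, 45.4 ± 13.3 and 108 ± 29.2 CPM at the 3 ages, with a log2 change of 1.25 ± 0.24 at P60 against E14.5 (adjusted p = 0.00074).

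Mrpl34, Mrpl23, Mrpl24 and Mrpl52 were called in none of the 3 comparisons. Mrpl34 had 45.6, 34.4 and 34.6 CPM at E9.5, 64.8, 36.3 and 35.7 CPM at E14.5, and 55.0, 34.7 and 51.4 CPM at P60, so that the 3 ages overlapped. Per length it was nonetheless among the 5 most abundant members, at 239 TPM on average, with Mrpl28 at 253, Mrpl12 at 212 and Mrpl20 at 205 TPM. Mrpl23, a protein at the exit of the peptide tunnel, averaged 7.97 TPM, the lowest of the tested members. The tested members thus ranged from 7.97 to 287 TPM. TPM divides by all annotated exons of a gene, 4883 bases for Mrpl23 and 888 for Mrpl41, so ranks between members depend on the annotation. By mean CPM at E9.5, Mrpl23 (12.6 CPM) stood above Mrps36 (5.03 CPM) and Mrps34 (7.14 CPM). Mrpl53 was counted with 7 reads over the 9 libraries and was not tested. Of its exon length, 88.0% is shared with Gm42688, a readthrough gene, so its level cannot be read from these counts.

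In the small subunit, Mrps2 and Mrps5 went against the group. Mrps2, a protein of the subunit's outer face that descends from a bacterial one (chr2:28468066-28471178, plus strand), was at 71.8, 74.8 and 70.4 CPM at E9.5, 36.3, 36.6 and 34.5 CPM at E14.5, and 26.7, 32.8 and 27.2 CPM at P60. The 3 ages did not overlap and each was lower than the one before. The log2 change was -1.01 ± 0.13 at E14.5 against E9.5 (edgeR, adjusted p = 4.3e-05) and -1.32 ± 0.13 at P60 against E9.5 (adjusted p = 2.5e-06). The call for P60 against E14.5 was weak, at -0.31 ± 0.13 (adjusted p = 0.047), and was lost under most alternatives, among them median-of-ratios scaling, where the log2 change was -0.21 (adjusted p = 0.14). Mrps5 lies where messenger RNA enters the small subunit. It had 78.5, 72.1 and 70.2 CPM at E9.5, 73.3, 61.8 and 64.0 CPM at E14.5, and 45.7, 43.7 and 46.9 CPM at P60. The embryonic ages overlapped and the adult libraries were all below them, with a log2 change of -0.55 ± 0.13 at P60 against E14.5 (adjusted p = 0.0022). Neither gene shares exon sequence with another annotated gene.

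At the other end of the small subunit were Mrps33, Mrps34, Mrps16, Mrps25 and Mrps26. Mrps33, a mitochondria-specific protein, had 13.0, 11.3 and 10.6 CPM at E9.5, 14.2, 10.4 and 9.66 CPM at E14.5, and 51.0, 32.3 and 60.1 CPM at P60. The embryonic ages overlapped and every P60 library was above them, with a log2 change of 2.06 ± 0.24 at P60 against E14.5 (edgeR, adjusted p = 1.6e-05) and 2.04 ± 0.24 at P60 against E9.5 (adjusted p = 1.1e-05). Mrps16 averaged 35.1 ± 6.36, 26.0 ± 10.3 and 77.7 ± 22.9 CPM at the 3 ages, and Mrps26 53.1 ± 9.41, 47.1 ± 14.6 and 133 ± 34.2 CPM. Their log2 changes at P60 against E14.5 were 1.58 ± 0.30 and 1.49 ± 0.26 (adjusted p = 0.00058 and 0.00030). Mrps34 and Mrps25 rose by 1.65 ± 0.25 and 1.56 ± 0.25 in the same comparison (adjusted p = 0.00014 and 0.00016), but 63.4% and 69.8% of their exon length overlaps Mapk8ip3 and Nr2c2, so their reads are uncertain. Mrps27, a pentatricopeptide repeat protein that binds mitochondrial RNA, fell by 1.25 ± 0.23 at E14.5 against E9.5 (adjusted p = 0.00062) and averaged 59.3 ± 8.32, 24.9 ± 7.57 and 56.1 ± 11.1 CPM at the 3 ages, with 24.2% of its exon length shared.

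Mrps36, the metabolic enzyme subunit that kept a ribosomal name, was scarce and rose in the adult, as 67 of the 77 tested members did. It had 5.32, 5.47 and 4.31 CPM at E9.5, 3.86, 3.25 and 2.90 CPM at E14.5, and 13.9, 9.43 and 14.2 CPM at P60. The 3 ages did not overlap, and the log2 change at P60 against E14.5 was 1.90 ± 0.21 (edgeR, adjusted p = 1.2e-05).

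Mrps18a, Mrps18b and Mrps18c are 3 versions of 1 bacterial protein. Mrps18c took its place in the small subunit, Mrps18b holds another site of the small subunit, and Mrps18a lies in the large one. Mrps18a averaged 49.5 ± 7.33 CPM at E9.5, 41.3 ± 13.3 CPM at E14.5 and 122 ± 28.2 CPM at P60. Mrps18b (chr17:35910379-35916389, minus strand) had the largest early fall of all members, with 22.2, 22.5 and 17.7 CPM at E9.5, 7.90, 6.49 and 6.30 CPM at E14.5, and 11.0, 10.3 and 11.8 CPM at P60. The 3 ages did not overlap, and the log2 change was -1.59 ± 0.16 at E14.5 against E9.5 (edgeR, adjusted p = 7.8e-06) and 0.68 ± 0.16 at P60 against E14.5 (adjusted p = 0.0025). Mrps18c averaged 25.8 ± 1.42, 17.1 ± 8.86 and 37.8 ± 8.86 CPM.

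The balance between the 3 versions differed over the ages. The log2 ratio of Mrps18a to Mrps18b, taken per library on CPM + 1, was 1.34, 1.01 and 1.28 in the E9.5 libraries, 2.70, 2.23 and 2.21 in the E14.5 libraries, and 3.43, 3.02 and 3.51 in the P60 libraries. The 3 ages did not overlap in this ratio (exact permutation test on F, 1680 assignments of the libraries, p = 0.0036, the smallest it can give, adjusted over 3 ratios p = 0.011). Mrps18b against Mrps18c averaged -0.31 ± 0.17, -1.10 ± 0.50 and -1.66 ± 0.28 at E9.5, E14.5 and P60 (exact permutation p = 0.014, adjusted p = 0.014). Mrps18a against Mrps18c averaged 0.90 ± 0.13, 1.29 ± 0.24 and 1.66 ± 0.08 (exact permutation p = 0.0071, adjusted p = 0.011). In the first of these the E14.5 and P60 libraries overlapped, and in the second the E14.5 and E9.5 libraries. Both lost their call without E9.5 library #2 (adjusted p = 0.061). An antisense gene, Gm16279, covers 30.5% of the exon length of Mrps18b, and Gm43511 covers 23.2% of Mrps18c, and with unstranded libraries their reads cannot be told apart.

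The members also varied together from library to library within an age. Measured as the median log2 deviation from the age's mean, E14.5 #1 was 0.40 above, with 77 of 77 members higher than their E14.5 mean, and P60 #2 was 0.41 below (-0.41), with 1 of 77 above its P60 mean. The nuclear genes of oxidative phosphorylation deviated by 0.48 and -0.45 in these libraries and the cytosolic ribosomal protein genes by 0.57 and -0.53. All genes with exons under 1500 bases in sum deviated by 0.15 and -0.14, those with 5000 bases or more by -0.16 and 0.23, and all genes tested by -0.01 and 0.06. The deviation was thus shared by other groups and ran the opposite way in genes with long exons. Its part in the differences between ages was not tested. An alternative chosen after the data were seen left out both libraries. It takes away the E14.5 library where the members were highest and the P60 library where they were lowest. Larger counts were therefore built into the choice and are no separate support. In this alternative 67 members were lower at E14.5 than at E9.5, where 35.2% of all genes were. All 77 were called at P60 against E14.5 (80.5% of all genes) and 64 at P60 against E9.5 (86.3% of all genes), and these included every call made with all libraries.

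**Figure D3:**
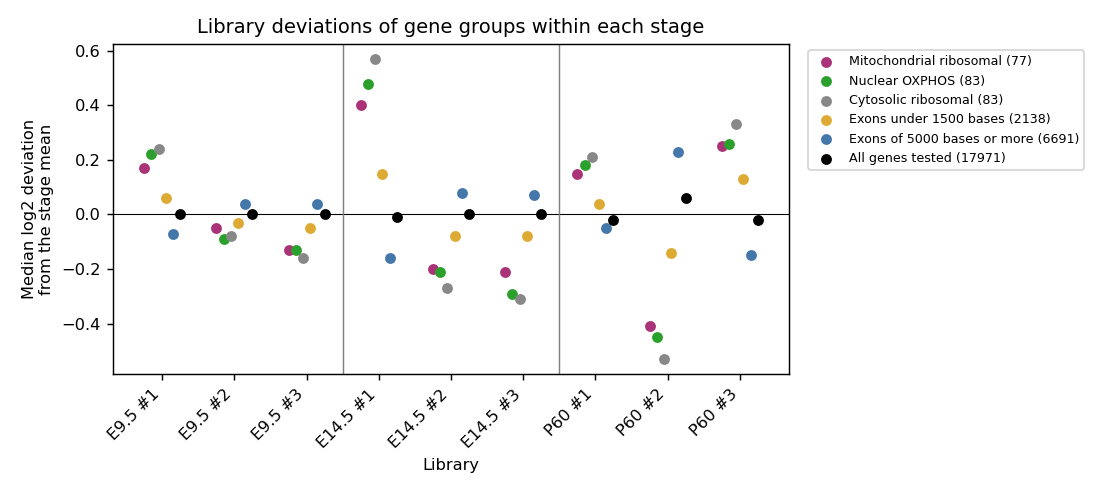
For each library (horizontal axis) the points give the median log2 deviation of a gene group from the mean of that age (vertical axis), with the number of genes in brackets. The mitochondrial ribosomal, oxidative phosphorylation and cytosolic ribosomal genes are high together in E14.5 #1 and low together in P60 #2, while genes with long exons lie on the other side of 0.

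Further proteins of the ribosome have names outside the Mrp series. Dap3, Chchd1, Aurkaip1, Ptcd3 and Gadd45gip1 were all higher at P60 than at E14.5, with log2 changes of 0.46 to 1.84. Ptcd3, a pentatricopeptide repeat protein of the small subunit, was called lower at E14.5 than at E9.5. It averaged 127 ± 13.8 CPM at E9.5, 48.0 ± 4.34 CPM at E14.5 and 66.0 ± 6.97 CPM at P60 and so stayed below its early level (log2 change -0.94 ± 0.14 at P60 against E9.5, edgeR, adjusted p = 9.9e-05). Aurkaip1 had 73.2, 59.2 and 56.3 CPM at E9.5, 63.1, 39.5 and 39.6 CPM at E14.5, and 186, 127 and 198 CPM at P60, with all adult libraries above the embryonic ones.

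Among the genes that assemble and serve the ribosome, falls outnumbered rises in each list at E14.5 against E9.5, and the adult brought changes in both directions. Of all genes tested, 30.7% were lower and 34.0% higher at E14.5 than at E9.5. The shares were 39.4% and 36.7% at P60 against E14.5, and 40.6% and 42.0% at P60 against E9.5. They stand beside the counts given here and for the other gene lists below. Of 24 assembly and ribosomal RNA modification factors 11 were lower and 1 higher at E14.5 than at E9.5, and 15 were higher and 4 lower at P60 than at E14.5. Fastkd2, which binds the large ribosomal RNA, averaged 50.5 ± 3.06, 21.2 ± 1.23 and 52.4 ± 9.78 CPM at the 3 ages, the same shape as the ribosomal proteins. Mpv17l2, an assembly factor of the inner membrane, was the gene called higher in the first step, at 4.92 ± 0.596, 14.4 ± 4.65 and 44.7 ± 8.08 CPM. Of 11 translation factors 6 were lower and 1 higher at E14.5 than at E9.5, and 3 were higher and 2 lower at P60 than at E14.5. The elongation factors Tufm and Gfm1 averaged 90.0 ± 7.59, 51.2 ± 3.15 and 47.4 ± 3.69 CPM and 82.3 ± 4.11, 38.0 ± 3.65 and 61.5 ± 2.20 CPM. Of 17 mitochondrial aminoacyl-tRNA synthetases, which load transfer RNAs with amino acids, 11 were lower and 3 higher at P60 than at E9.5. The mitochondrial DNA maintenance and transcription genes had the lowest adult median of these 4 lists, with 7 of 10 lower and 0 higher at P60 than at E9.5 (none higher at an unadjusted p under 0.05 or by DESeq2) and a median log2 change of -1.06. The helicase Twnk averaged 92.8 ± 4.84, 41.7 ± 4.13 and 15.6 ± 1.13 CPM.

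Set beside the oxidative phosphorylation complexes and the cytosolic ribosome, the mitochondrial ribosomal protein genes had medians in between. Of 83 nuclear oxidative phosphorylation subunits 7 were lower and 1 higher at E14.5 than at E9.5 (median log2 change 0.00), and 81 were higher at P60 than at E14.5 (median 1.74). Cytosolic ribosomal protein genes fell further in the first step, with 56 of 83 lower at E14.5 than at E9.5 (median -0.91), and 19 were higher and 6 lower at P60 than at E14.5 (median 0.30). Of 7 mitochondrially encoded protein genes with enough reads, 5 were higher at P60 than at E14.5 (median 0.98), and none was called in either direction at E14.5 against E9.5. The other 6 of the 13 such genes (mt-Co2, mt-Co3, mt-Atp6, mt-Atp8, mt-Nd3 and mt-Nd4l) are listed at 0 to 0.0335 CPM in every library, where mt-Co1 is listed at 1640 to 6880 CPM, so their levels cannot be read from these counts. At an unadjusted p under 0.05, 2 of these 7 were higher in the first step, and DESeq2 called none. The differences between these lists were not tested.

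**Figure D4:**
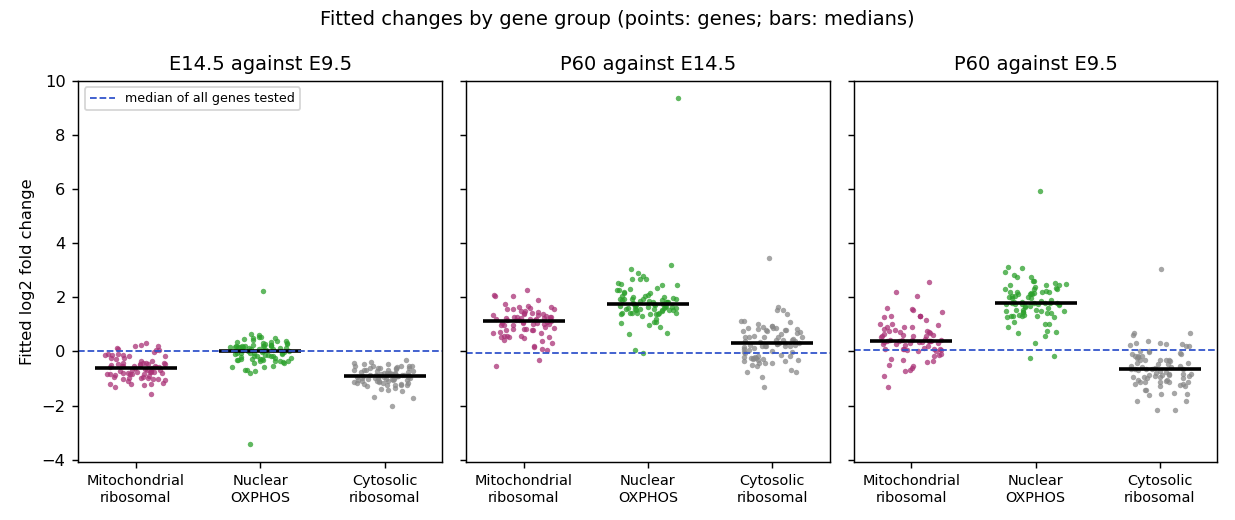
The fitted log2 fold change (vertical axis) of every tested gene is shown for 77 mitochondrial ribosomal, 83 nuclear oxidative phosphorylation and 83 cytosolic ribosomal protein genes in the 3 comparisons, with black bars at the medians and a dashed line at the median of all genes. The mitochondrial ribosomal bars stand at -0.60, 1.14 and 0.40, below those of oxidative phosphorylation in each panel and above those of the cytosolic ribosome.

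The regulators best known for driving mitochondrial genes moved in both directions. Of 10 listed, 8 were lower and 2 higher at E14.5 than at E9.5, and 7 were lower and 2 higher at P60 than at E14.5. Pprc1, a coactivator found in growing cells, averaged 271 ± 11.3, 63.0 ± 2.37 and 14.2 ± 3.78 CPM at E9.5, E14.5 and P60, and Myc 72.0 ± 2.57, 26.9 ± 1.04 and 3.50 ± 0.785 CPM. Ppargc1a and Esrra went the other way, with 2.09 ± 0.286, 16.0 ± 4.44 and 25.3 ± 5.41 CPM and 17.4 ± 1.16, 29.3 ± 1.72 and 104 ± 13.1 CPM. Nrf1, Gabpa, Gabpb1 and Yy1, named for the motifs searched below, were called lower in both comparisons. Nrf1 averaged 100, 61.6 and 17.7 CPM at the 3 ages, and Gabpa 101, 52.9 and 17.1 CPM. Gabpb1 averaged 76.0, 57.7 and 20.7 CPM, and Yy1 92.0, 62.9 and 30.4 CPM. Any part of these levels in the members' changes was not tested.

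A promoter window from 250 bases before to 50 bases after the RefSeq start was on hand for 69 of the 78 members (RefSeq, GRCm38.p6). These windows were searched on both strands for the letters of sites known from mitochondrial genes. The ETS core bound by GABP (CCGGAAG) was found in 25 of the 69 members (36.2%), against 9.12% of all 27025 windows and 15.6% of those of genes tested. The NRF1 site (GCGCA and GCGC with any 1 base between them) was in 13 (18.8%), against 4.78% and 8.94%, and the YY1 site (AAGATGGC) in 12 (17.4%), against 2.88% and 4.00%. In all, 42 members held at least 1 of these 3 motifs, against 15.2% of all windows and 25.5% of those of genes tested. No matches of different motifs overlapped, while the NRF1 matches in Mrps26 overlapped each other. The Myc E-box (CACGTG) was in 5 members (7.25%) and the CCAAT box (CCAAT) in 27 (39.1%), against 7.24% and 37.9% of all windows. A match is a description of the sequence and was not tested for binding. The following stretches are the 100 bases before the start of 6 members that stand out above, 4 with a match and the 2 at the ends of the adult change, Mrpl41 and Mrps2. Capitals mark the NRF1 match in Mrpl12 and Mrpl45, the ETS match in Mrpl27 and the YY1 match in Mrpl36, and in Mrpl12 and Mrpl36 the motif reads on the opposite strand.
Mrpl12, chr11:120484537-120484636, plus strand: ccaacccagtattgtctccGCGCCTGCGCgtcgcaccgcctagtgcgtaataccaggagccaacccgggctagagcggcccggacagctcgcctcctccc
Mrpl45, chr11:97315616-97315715, plus strand: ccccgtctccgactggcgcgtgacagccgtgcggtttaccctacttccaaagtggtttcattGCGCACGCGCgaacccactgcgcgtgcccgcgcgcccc
Mrpl27, chr11:94653691-94653790, plus strand: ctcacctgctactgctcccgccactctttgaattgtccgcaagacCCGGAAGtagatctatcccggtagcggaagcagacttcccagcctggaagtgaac
Mrpl36, chr13:73330909-73331008, plus strand: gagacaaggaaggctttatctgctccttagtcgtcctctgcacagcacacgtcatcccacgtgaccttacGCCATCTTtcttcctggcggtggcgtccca
Mrpl41, chr2:24975099-24975198, minus strand: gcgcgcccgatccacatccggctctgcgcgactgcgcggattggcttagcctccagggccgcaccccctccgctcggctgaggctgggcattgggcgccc
Mrps2, chr2:28467966-28468065, plus strand: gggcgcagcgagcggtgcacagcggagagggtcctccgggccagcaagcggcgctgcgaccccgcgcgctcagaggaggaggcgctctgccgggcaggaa

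The matches marked begin 81 bases before the start in Mrpl12, 38 in Mrpl45, 55 in Mrpl27 and 30 in Mrpl36. Outside the stretch shown, the Mrpl45 window also holds NRF1 matches that begin 120 bases before the start and at base 16 counted from it. None of the GABP, NRF1 and YY1 motifs was found in the whole windows of Mrpl41 and Mrps2, which says only that these letters are absent there. For P60 against E14.5 the median log2 change was 1.18 with the ETS core (24 tested members) and 1.06 without it (44), 1.10 with and 1.15 without the NRF1 site, and 1.10 with and 1.14 without the YY1 site.

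Some members start close to a neighbour on the opposite strand. For 33 of the 78, a protein-coding gene on the opposite strand starts within 1000 bases by the GENCODE gene ends, with overlapping pairs counted too. The share of all genes with such a neighbour was not worked out, and use of a common promoter was not tested. RefSeq starts were at hand for both genes of 26 such members and lay within 1000 bases for 25, the exception being Mrpl36 and Ndufs6, which start 29 bases apart in GENCODE and 2527 bases apart in RefSeq. Of the 30 such neighbours that are not members and were tested, 12 were lower and 5 higher at E14.5 than at E9.5, and 16 were lower and 7 higher at P60 than at E14.5, with median log2 changes of -0.36 and -0.57. Among all genes tested, 30.7% were lower and 34.0% higher in the first comparison, and 39.4% were lower and 36.7% higher in the second. The pairs named here were chosen after their values were seen. Mrpl27 and Eme1, a DNA repair nuclease subunit, start 197 bases apart in GENCODE. Eme1 averaged 77.6 ± 7.47 CPM at E9.5, 12.9 ± 1.70 CPM at E14.5 and 0.203 ± 0.0343 CPM at P60, while Mrpl27 averaged 101 ± 23.1 CPM at P60. Mrpl57 and the spindle gene Ska3 start 49 bases apart, and Ska3 averaged 54.8 ± 2.26, 13.3 ± 0.264 and 0.710 ± 0.113 CPM at the 3 ages. The summed markers of dividing cells moved with both, at 2120 to 2230 CPM at E9.5, 611 to 722 CPM at E14.5 and 3.86 to 4.38 CPM at P60. Some neighbours rose with the member at P60 against E14.5. Mrpl32 and Psma2, a proteasome subunit, start 75 bases apart, and Psma2 averaged 198 ± 24.9, 133 ± 44.3 and 292 ± 88.9 CPM. In 1 case both neighbours are members, Mrpl46 of the large and Mrps11 of the small subunit, which start 412 bases apart. Mrps11 averaged 43.4 ± 4.56, 29.1 ± 7.60 and 46.2 ± 7.56 CPM, with a log2 change of 0.67 at P60 against E14.5 (edgeR, adjusted p = 0.010), where Mrpl46 rose by 2.09.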

How the data were processed

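Poly(A)-primed, PCR-amplified full-length cDNA of about 1 ng RNA per sample was sequenced without strand information, per the labels' protocols. Per the submitters' processing notes, Trimmomatic 0.36 was used on the reads, STAR 2.5.2b aligned them and the build was mm10. The authors deposited raw read counts per gene. How reads were counted (program, annotation, strand) is not given in the sources used here, and overlapping genes may share reads. Symbols, coordinates and exon lengths came from GENCODE M21 (45143 of 45706 identifiers matched), and promoter sequences from RefSeq.

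Groups were the 3 ages in the labels. The 17971 genes kept by filterByExpr were fitted with edgeR 4.0.16 under R 4.3.3 (TMM scaling, robust quasi-likelihood fit of all 9 libraries, age as the only factor, two-sided, Benjamini-Hochberg adjustment over all genes, threshold 0.05), after the code had been tested on simulated data. The SE of a fold change is approximate, taken as its size over the square root of the F statistic. The biological coefficient of variation was 19.9%, so the spread between libraries and not depth limits precision. Alternatives were other scalings, filters and thresholds, DESeq2 1.42.0, a replicate block, a fit of only the 2 ages compared and each library left out. The 3 Mrps18 ratios were tested by exact permutation.

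The members, gene lists, roles and motifs were chosen with earlier results of these data known. Named members were those called with at least 2-fold change, the largest called changes per subunit and direction, the 5 highest and 5 lowest by TPM, the Mrps18 genes, Mrpl12, Mrps30, Mrps36 and Mrpl58. From each list at most 3 called genes that moved with its majority, and 1 against it, could be named per comparison. Nrf1, Gabpa, Gabpb1 and Yy1 were named outside this rule, because their motifs were searched. The values of 1 gene named by this rule are not reported here.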

Additional observations from a re-analysis of the deposited data

How the results depend on the processing

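No member called with all libraries changed sign under any of the alternatives run. The 2 members lower at P60 than at E14.5 became 1, by loss of Mrps2, with median-of-ratios or upper quartile scaling, without a filter on low counts, with a mean of at least 1 CPM, with DESeq2, at an adjusted p of 0.01 and with only the 2 ages compared. Leaving out each library in turn gave 1 to 2 lower and 59 to 74 higher members at P60 against E14.5, 30 to 59 lower at E14.5 against E9.5, and 25 to 47 higher and 6 to 9 lower at P60 against E9.5, where 47 was without P60 #2. With E14.5 #1 and P60 #2 both left out, 64 members were called at P60 against E9.5 (86.3% of all genes), 56 of them higher (43.5% of all genes). These libraries were picked by the members' own values, so a larger count was built into the choice. The adjusted p of the Mrps18a to Mrps18c and Mrps18b to Mrps18c ratios reached 0.061 without E9.5 #2 (range 0.0036 to 0.061 for both, 0.0036 to 0.011 for Mrps18a to Mrps18b). The cause was not tested. Scaling by library totals moved the median of all genes to 0.12, -0.20 and 0.00 in the 3 comparisons, with member medians of -0.52, 1.00 and 0.35, and upper quartile scaling to 0.02, 0.10 and 0.20, with member medians of -0.61, 1.31 and 0.56.

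Libraries with the same number correlated at -0.224 to 0.37 in their deviations from the age means, so the numbers were not taken to pair them. A replicate block called 55 members lower at E14.5 against E9.5, 70 higher and 2 lower at P60 against E14.5, and 37 higher and 7 lower at P60 against E9.5, keeping every call of the fit without it.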
